A study of Rattus norvegicus with 12 samples.

Results

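The Sprouty, Spred and Gadd45 genes encode proteins that damp or redirect signalling through MAP kinases. The genes taken were Spry1, Spry2, Spry4, Spred1, Spred2, Gadd45a, Gadd45b and Gadd45g, and their probe sets were those to which the array's annotation gives one of these symbols and no other. Of these 8 genes, among 14217 genes named on the array, 6 had a probe set, 1 for each gene: Spry1 (1379380_at), Spry2 (1374864_at), Spry4 (1392529_at), Gadd45a (1368947_at), Gadd45b (1372016_at) and Gadd45g (1388792_at). Spred1 and Spred2 had none. RNA came from cultured rat cerebellar granule neurons and was measured on 12 Affymetrix arrays in 4 groups of 3, namely cultures in low potassium (LK in the titles) and cultures given GW5074 (GW), each taken at 3 h and at 6 h. Arrays within a group carry the letters A, B and C, which may or may not be separate cultures, so that p-values here measure a spread that could be purely technical. No label states the potassium level of the GW5074 cultures, and 1 title, that of GW5074 array A at 6 h, ends in e3_le1 where the other 11 end in e1_le1.

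Granule neurons in culture are kept alive by a depolarising level of potassium, and lowering it starts a cell death programme that depends on new transcription and on the JNK and p38 kinases. GW5074 is a small molecule that inhibits the kinase c-RAF, which stands between Ras and the MEK and ERK kinases. Sprouty and Spred proteins are induced by growth factor signalling and feed back on it, Sprouty by acting on adaptors and RAF, and Spred by bringing the Ras-inactivating protein neurofibromin to the membrane. The Gadd45 proteins are small stress-induced nuclear proteins that bind PCNA, the cell cycle inhibitor p21 and cyclin B-CDK1, and activate the kinase MEKK4 upstream of p38 and JNK. Gadd45b is also known to bind and inhibit the JNK activator MKK7, and is an activity-induced gene in neurons.

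In low potassium 3 of the 6 genes measured were called between 3 h and 6 h, the Gadd45 genes, where 22.7% of all probe sets were called. With GW5074 2 were called, Gadd45b and Gadd45g, where 25.0% of all were called. No Sprouty gene was called with all arrays in the fit without a block. Spry1 did pass the threshold in both treatments without the letter B arrays at 6 h. It also passed in low potassium with a block by letter across times. Gadd45b fell by more than 3-fold in either treatment, Gadd45g fell in either treatment, and Gadd45a rose in low potassium. In the comparison of GW5074 with low potassium, Gadd45g was the only one of the 6 genes to pass the threshold, at 6 h, and only when arrays of the same letter were paired. The paired fit called 1.87% of all probe sets at 6 h. The Gadd45g call was lost in 2 of 9 other settings with pairs, and also with the pairs as a random block.

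The values are deposited intensities on a linear scale, which the authors scaled to a common trimmed mean of 150 per array, as the values show. Tests used log2 of the quantile-normalised intensity plus 16, so that fold changes of dim probe sets are understated. All 6 probe sets were among the 18625 that passed a filter on mean intensity at the 40th percentile. That of Spry1 did not pass an alternative filter at the 60th percentile. A gene was called when its p-value from limma, adjusted by the Benjamini-Hochberg method over all 18625 probe sets, was under 0.05.

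On the leading principal component, which held 54.7% of the variance, the letter B arrays at 6 h stood apart. On a scale where 0 is the 3 h mean and 1 the mean of the 6 h arrays A and C, they lay at 0.59 in low potassium and 0.537 with GW5074, against 0.939 to 1.06 for the other 6 h arrays. The changes of the 6 genes, and the counts of genes in each list called with time, are therefore also given without them. This setting was chosen after seeing the data. Markers of granule neurons were present, with Neurod1 at a mean intensity of 2358, the GABA receptor subunit Gabra6 at 697 and the glutamate transporter Slc17a7 at 1899. The glial markers Gfap (1125) and Mbp (1863) were also well above the filter. Other markers of these lists were dimmer. The granule neuron markers Grin2c and Zic2 read 106.8 and 114.2. The glial markers Slc1a2 (10.69), Olig2 (14.18) and Cspg4 (6.935) lay below the filter. The summed intensity of 12 tested granule neuron markers was 8266 to 11337 on the 3 h arrays and 14838 to 18732 on the 6 h arrays, and that of 8 astrocyte markers was 2225 to 3094 and 3593 to 5950. Of the granule neuron markers 6 rose with time in low potassium and 11 with GW5074, where 22.7% and 25.0% of all probe sets were called. These counts were 7 and 11 without the letter B arrays at 6 h, where 29.8% and 31.4% of all were called. Of the astrocyte markers 2 rose in each, and the list medians were 0.23 in low potassium and -0.002 with GW5074. Without the letter B arrays at 6 h, Gfap and Aldoc rose in each and Slc1a3 fell in each (-0.64 and -0.91). Gja1 then fell with GW5074 (-0.78). No marker of microglia (5 tested) or of endothelial cells and fibroblasts (3 tested) was called, and 1 of 7 oligodendrocyte lineage and 1 of 6 Purkinje and GABAergic markers fell in each treatment. Without the letter B arrays at 6 h, 2 oligodendrocyte lineage markers fell in each. The Purkinje and GABAergic markers then had 1 up and 1 down in each, and the microglia and the endothelial and fibroblast lists again had none called. The part of these shifts in the time changes below was not tested, and in bulk RNA fewer cells of a type and less RNA per cell cannot be told apart.

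Spry2, a feedback inhibitor of receptor tyrosine kinase signalling, had intensities of 252, 299 and 323 in low potassium at 3 h and of 258, 314 and 232 with GW5074 (letters A, B and C). At 6 h its low potassium arrays read 308, 417 and 305, and its GW5074 arrays 240.3, 363 and 345. The groups all overlapped, with means between 268 ± 42.2 (GW5074, 3 h) and 343 ± 63.97 (low potassium, 6 h; SD, n = 3). From 3 h to 6 h it differed by 0.16 on the log2 scale in low potassium (95% interval -0.24 to 0.57) and by 0.14 with GW5074 (-0.26 to 0.55). These were 0.02 and 0.03 without the letter B arrays at 6 h.

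Spry4, a paralogue with the same kind of activity, read 60.5, 102 and 98.6 in low potassium at 3 h and 134, 98.4 and 130.2 with GW5074. At 6 h its low potassium arrays read 119, 113 and 85.5, and its GW5074 arrays 100.03, 104 and 132. The low value was that of the low potassium array A at 3 h, and every group overlapped its neighbour in the order of means, from 87.1 ± 23.2 in low potassium at 3 h to 121 ± 19.6 with GW5074 at 3 h. With time it differed by 0.22 in low potassium (adjusted p = 0.459, limma) and by -0.14 with GW5074 (adjusted p = 0.652). They were 0.18 and -0.09 without the letter B arrays at 6 h.

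Spry1, the third Sprouty gene measured and also a feedback inhibitor, had a dim probe set. It read 37.0, 51.3 and 42.0 in low potassium at 3 h and 24.3, 22.4 and 14.6 at 6 h, so that these groups did not overlap. With GW5074 it read 56.7, 46.4 and 47.7 at 3 h and 31.3, 54.8 and 16.1 at 6 h, where array B lay above 2 of the arrays from 3 h. The log2 difference from 3 h to 6 h was -0.69 in low potassium (SE 0.253, adjusted p = 0.0648, limma) and -0.44 with GW5074 (adjusted p = 0.224), and neither was called. Without the letter B arrays at 6 h both passed the threshold, at -0.73 (adjusted p = 0.0429) and -0.71 (adjusted p = 0.0459).

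**Figure D1:**
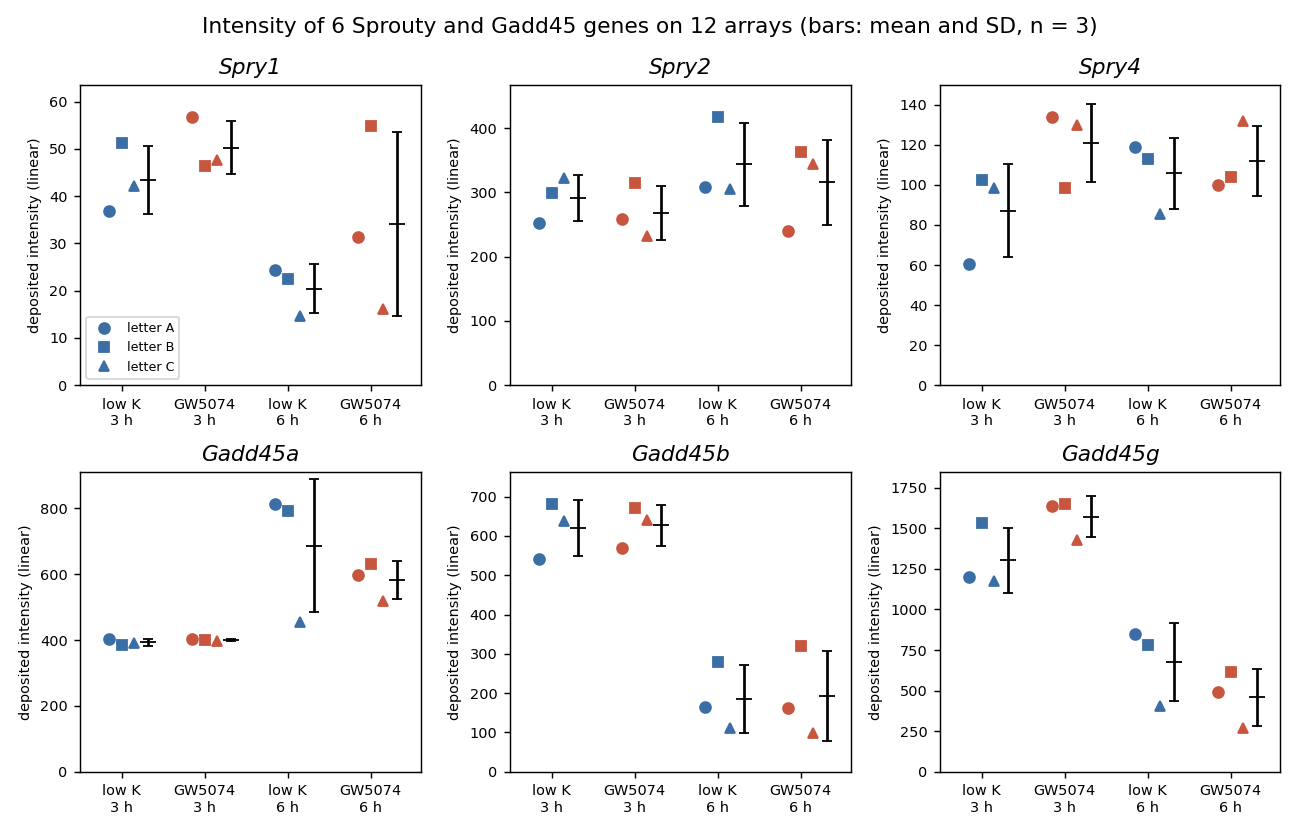
Deposited intensity (linear scale, arbitrary units) of the 6 genes on each array, in low potassium (blue) and with GW5074 (red) at 3 h and 6 h; circles, squares and triangles are letters A, B and C, and bars are mean ± SD, n = 3. The 3 h and 6 h points of Gadd45a, Gadd45b and Gadd45g are separate in both treatments. Those of Spry1 are separate in low potassium only, and those of Spry2 and Spry4 overlap. The share of all probe sets that separate in this way was not counted.

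The 3 Gadd45 genes carry the time changes described next, so the bases before their start sites are shown to set side by side which short motifs each one holds. The sequences are the 250 bases upstream of the RefSeq gene start, on the GRCr8 build and 5′ to 3′ on the gene's strand, which is the minus strand for all 3: chr4:97486800-97487049 for Gadd45a, chr7:9430719-9430968 for Gadd45b and chr17:13530352-13530601 for Gadd45g. Capitals mark matches to any of 5 motifs searched on both strands.
Gadd45a: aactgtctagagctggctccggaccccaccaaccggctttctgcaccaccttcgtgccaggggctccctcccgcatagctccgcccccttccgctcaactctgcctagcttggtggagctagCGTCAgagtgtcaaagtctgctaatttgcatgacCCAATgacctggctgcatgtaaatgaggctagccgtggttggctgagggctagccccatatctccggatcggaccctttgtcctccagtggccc
Gadd45b: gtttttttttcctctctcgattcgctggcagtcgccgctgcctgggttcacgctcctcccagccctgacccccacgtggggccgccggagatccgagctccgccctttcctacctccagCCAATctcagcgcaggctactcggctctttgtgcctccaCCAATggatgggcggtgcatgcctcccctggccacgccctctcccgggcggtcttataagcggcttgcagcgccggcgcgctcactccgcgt
Gadd45g: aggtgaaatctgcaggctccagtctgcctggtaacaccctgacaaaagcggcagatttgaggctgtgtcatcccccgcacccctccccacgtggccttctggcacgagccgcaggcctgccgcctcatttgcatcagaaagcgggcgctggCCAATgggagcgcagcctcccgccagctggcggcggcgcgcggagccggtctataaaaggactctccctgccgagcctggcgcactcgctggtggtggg

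The motifs were the AP-1 site, spelled TGANTCA, and the CRE, spelled TGACGTCA. The others were the short form of the CRE, spelled TGACG and lying within it, the box spelled CCAAT, and the ETS site, spelled CCGGAAG. The CCAAT box was found in all 3 windows, 94 to 90 bases before the start in Gadd45a, 131 to 127 and 92 to 88 in Gadd45b, and 99 to 95 in Gadd45g. Of the 3, only Gadd45a held the short CRE form, on the other strand (CGTCA), 128 to 124 bases before its start. Among all 33469 RefSeq promoter windows of this length, 34% held CCAAT, 18.2% the short CRE form, 7.27% ETS, 6.34% AP-1 and 1.59% the CRE. A match is a run of letters and was not tested as a binding site.

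Gadd45b, the neuronal activity gene that restrains MKK7, read 542, 682 and 638 in low potassium at 3 h and 164, 280.0 and 111 at 6 h. With GW5074 it read 570.1, 669.8 and 639.9 at 3 h and 161, 319.5 and 98.9 at 6 h. Every 6 h array lay below every 3 h array, and within 6 h the letter B array was the highest of each treatment. Gadd45b fell by 1.77 on the log2 scale in low potassium (3.42-fold, SE 0.326, adjusted p = 0.0025, limma). With GW5074 it fell by 1.79 (3.46-fold, SE 0.326, adjusted p = 0.00187). Among all tested probe sets these were the 58th and 59th largest falls. Taken letter by letter (A, B, C), the low potassium arrays gave -1.68, -1.26 and -2.38. The GW5074 arrays gave -1.77, -1.06 and -2.55. Any matching of arrays would give falls here, since the times did not overlap. Whether a letter links arrays across times is not stated. The changes were -2.10 and -2.20 without the letter B arrays at 6 h.

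Gadd45g, which like its paralogues binds and activates MEKK4, read 1202, 1535 and 1174 in low potassium at 3 h and 846, 783 and 403 at 6 h. With GW5074 it read 1638, 1651 and 1429 at 3 h and 492, 616 and 267 at 6 h. The 3 h and 6 h arrays did not overlap in either treatment, and array C was the lowest at 6 h in each. Gadd45g fell by 0.95 in low potassium (1.93-fold, SE 0.288, adjusted p = 0.0306, limma) and fell by 1.78 with GW5074 (3.43-fold, adjusted p = 9.76e-04). The call in low potassium was lost without 1 of 3 arrays: low potassium 3 h A (adjusted p = 0.0622), low potassium 3 h B (0.12) or low potassium 6 h C (0.141, with a change of -0.60). Without the letter B arrays at 6 h the falls were called in low potassium (-1.09, adjusted p = 0.0108) and with GW5074 (-2.04).

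Gadd45a, a p53-induced gene named for growth arrest and DNA damage, read 402, 384 and 392 in low potassium at 3 h and 814, 792 and 454 at 6 h. With GW5074 it read 403, 401 and 398 at 3 h and 597, 632 and 518 at 6 h. All 6 h arrays lay above all 3 h arrays, and the low potassium array C at 6 h was the nearest to the 3 h values. Gadd45a rose by 0.72 in low potassium (1.65-fold, SE 0.189, adjusted p = 0.0154, limma), while the 0.49 with GW5074 was not called (adjusted p = 0.0717). The rise in low potassium was not called without low potassium 3 h B (adjusted p = 0.0562) or low potassium 6 h A (0.57, adjusted p = 0.0748), and was called without the letter B arrays at 6 h (0.59, adjusted p = 0.0383). With GW5074 the difference passed the threshold in 2 other settings. These were the deposited scaling (adjusted p = 0.0477, limma) and a block by letter across times (0.0337). The test of the difference between the 2 time changes of Gadd45a, which is also that between the GW5074 effects, gave -0.23 with an adjusted p of 0.9998.

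In low potassium 3 of the 6 genes were thus called with time, 1 up and 2 down, where 22.7% of all probe sets were called. With GW5074 2 of 6 were called, both down, where 25.0% of all were called. Without the letter B arrays at 6 h the counts were 4 and 3, while 29.8% and 31.4% of all probe sets were then called. The order of group means was low potassium 6 h, GW5074 6 h, GW5074 3 h and low potassium 3 h for Gadd45a (687 ± 202, 582 ± 58.2, 401 ± 2.63 and 393 ± 9.49). For Gadd45b the means were 627 ± 51.2 (GW5074, 3 h), 621 ± 71.5 (low potassium, 3 h), 193 ± 114 (GW5074, 6 h) and 185 ± 86.6 (low potassium, 6 h). In both orders neighbours of the same time overlapped and neighbours of different times did not. How often the groups of other probe sets separate by time was not counted.

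**Figure D2:**
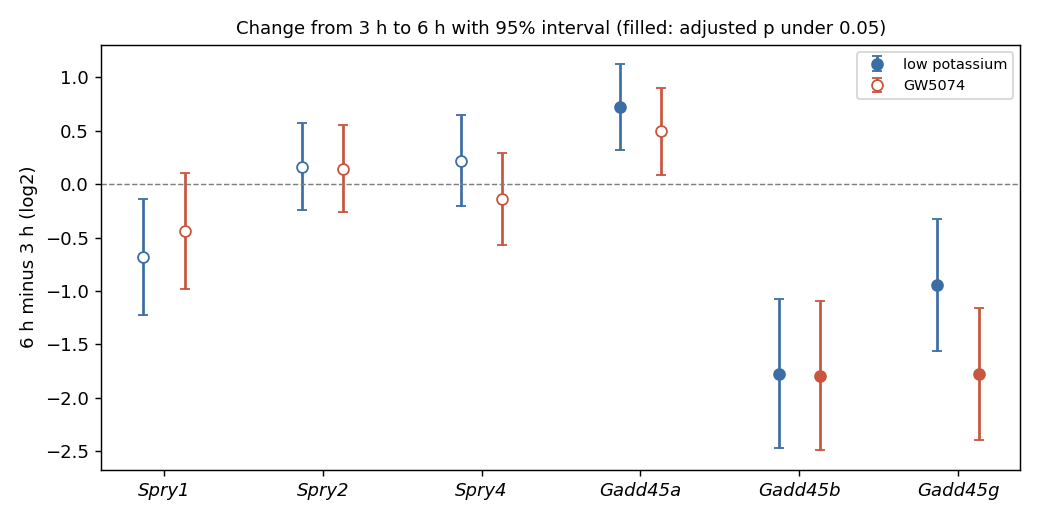
Log2 change from 3 h to 6 h of each of the 6 genes in low potassium (blue) and with GW5074 (red), with its 95% interval from limma, n = 3 arrays per group; filled points have an adjusted p under 0.05. Gadd45b is at -1.77 and -1.79, and Gadd45g at -0.95 and -1.78.

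The comparison of GW5074 with low potassium asks how these genes differ between the cultures at a given time. No label states the potassium level of the GW5074 cultures. Effects of the drug and of potassium therefore cannot be told apart here. The comparison shares its arrays with the time comparisons. In the fit without pairs limma called 0 of the 6 genes at 3 h, at 6 h and in the difference between the times, and 0 of all 18625 probe sets (0% in each), of which 299, 895 and 644 had an unadjusted p under 0.05. Arrays of the same letter and time resembled each other after removal of group means, and pairing them gave calls for 0.0161% of probe sets at 3 h, 1.87% at 6 h and 0.177% in the difference between the times. With pairs 0 of the 6 genes were called at 3 h, 1 at 6 h and 1 in the difference, and in each case that 1 was Gadd45g.

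At 6 h all 3 pairs had less Gadd45g signal on the GW5074 array, with log2 differences of -0.83, -0.33 and -0.57 for letters A, B and C. The means were 458 ± 177 with GW5074 and 677 ± 239 in low potassium (SD, n = 3), and the groups overlapped, with the low potassium array C below 2 of the GW5074 arrays. Gadd45g fell by 0.58 with pairs (1.49-fold, SE 0.0932, 95% interval -0.77 to -0.38, adjusted p = 0.00603, limma), while without pairs the SE was 0.288 and the adjusted p 0.983. The paired call was lost without pair A (-0.45, adjusted p = 0.0682) and without a trend of variance on intensity (0.184), and with the pairs as a random block the adjusted p was 0.144. Without pair B, whose arrays stand apart, the difference was -0.70 (adjusted p = 0.00193 with pairs).

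At 3 h all 3 pairs had more Gadd45g signal on the GW5074 array, by 0.37, 0.08 and 0.31, which was not called (0.25, adjusted p = 0.684 with pairs, limma). The means were 1573 ± 125 with GW5074 and 1304 ± 201 in low potassium, and the groups overlapped. The difference between the 6 h and the 3 h effects was -0.83 (SE 0.132, 95% interval -1.11 to -0.55, adjusted p = 0.0319 with pairs; 0.9998 without). It was not called when any pair but 6 h B was left out, with adjusted p-values of 0.0973, 0.093 and 0.132 without 3 h A, B and C, and 0.0733 and 0.0623 without 6 h A and C. With the filter on dim probe sets removed it was 0.123.

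Some technical readings and cell markers also differed in these pairs, and their part in the Gadd45g differences was not tested. The log2 difference between 3′ and 5′ actin probe sets was larger on the GW5074 array of all 3 pairs at 3 h (0.022, 0.0184 and 0.298) and at 6 h (0.113, 0.185 and 0.0355). The mean of the 27 poly-A control probe sets was smaller on the GW5074 array of all 3 pairs at 6 h (-0.462, -0.19 and -0.307), and of 2 of 3 at 3 h (-0.237, 0.241 and -0.0913). Of the 12 granule neuron markers 1 was called up with GW5074 at 6 h in the paired fit, Slc17a7 (0.42), and 1 in the difference between the times, the secreted protein gene Reln (0.55). The medians of these markers were 0.14 and 0.24. Those of the Purkinje and GABAergic markers lay farther from 0, at -0.29 and -0.35. The medians of the other marker lists ranged from -0.13 to -0.05 at 6 h and from -0.09 to 0.245 in the difference. No other marker list had a called gene in the paired fit. Without the letter B arrays at 6 h, 2 granule neuron markers were up and 1 astrocyte marker, Fabp7, was down at 6 h (-0.64). The share of all probe sets called in that setting was not counted.

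**Figure D3:**
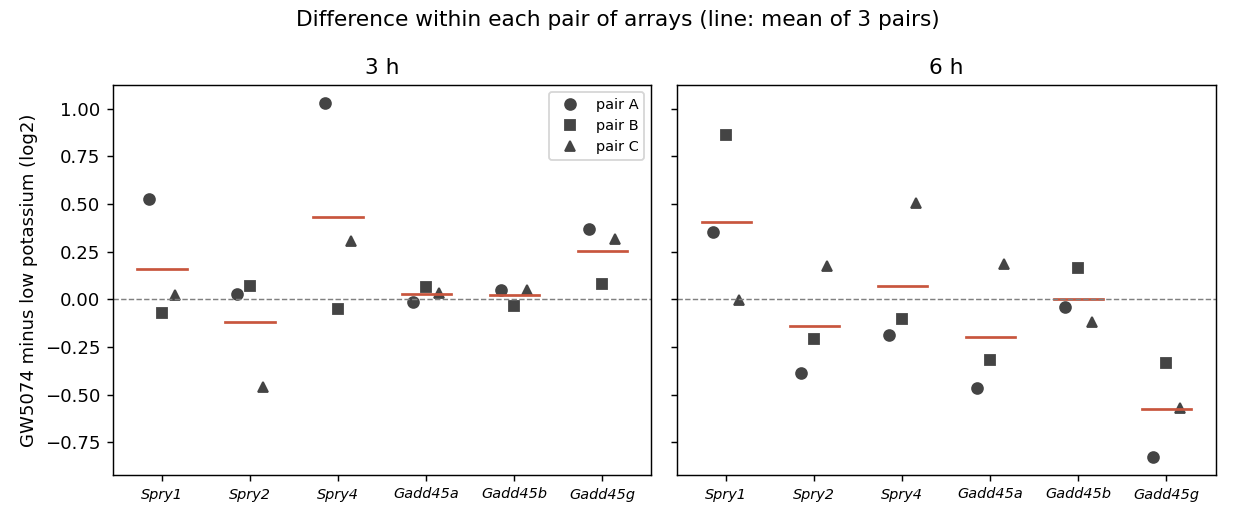
Log2 difference, GW5074 minus low potassium, of each of the 6 genes in each pair of arrays of the same letter at 3 h and 6 h; circles, squares and triangles are pairs A, B and C, and lines are the mean of 3 pairs. The 3 Gadd45g pairs lie above 0 at 3 h and between -0.83 and -0.33 at 6 h.

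Each of the other 5 genes had pairs of either sign at both times. Gadd45b differed by 0.02 at 3 h and by 0.00 at 6 h, where the paired 95% interval was -0.21 to 0.21 (adjusted p = 0.995, limma). Spry4 differed by 0.43 at 3 h, with pairs at 1.03, -0.05 and 0.31, an unadjusted p of 0.0493 and an adjusted p of 1 without pairs (0.737 with pairs). Without the low potassium array A at 3 h, the lowest Spry4 reading, this difference was 0.22. Spry1 differed by 0.41 at 6 h (adjusted p = 0.394 with pairs), most of it in pair B (0.86). Gadd45a differed by -0.20 at 6 h and Spry2 by -0.14 (adjusted p = 0.393 and 0.644 with pairs).

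Among the components of the RAF-MEK-ERK cascade, on which Sprouty and Spred proteins act, 10 of 18 were tested. In low potassium 1 rose and 2 fell with time, namely the ribosomal S6 kinase Rps6ka3 (1.01), Rps6ka2 (-0.69) and the MEK kinase Map2k2 (-0.42). With GW5074 3 fell, Map2k2 (-0.55), the RAF kinase Araf (-0.37) and the small GTPase Rap1b (-0.39). The 3 of 10 in each treatment stand beside 22.7% and 25.0% of all probe sets, and so lie near the background. The list medians were -0.11 and -0.26, against a median of 0.00 over all probe sets in each.

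Of the growth factor receptors and adaptors upstream of Ras, 13 of 18 were tested, with 2 up and 1 down in low potassium (22.7% of all called) and 3 up and 1 down with GW5074 (25.0% of all called). The insulin-like growth factor receptor Igf1r rose by 1.61 in low potassium and 1.57 with GW5074, and the docking protein Gab1 by 0.65 and 0.81. The epidermal growth factor receptor Egfr fell in each (-0.91 and -0.97). The adaptor Grb2 rose by 0.46 with GW5074. List medians were -0.09 and 0.11.

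Of the known partners of Sprouty and Spred proteins, 12 of 14 were tested. The ubiquitin ligase Cblb fell in low potassium (-0.85), where no other partner was called, and with GW5074 (-0.97). With GW5074 Grb2 and the Ras GTPase-activating protein Rasa1 (0.81) rose and the small GTPase Rhoa fell by 0.60. The counts were 1 and 4 of 12, where 22.7% and 25.0% of all were called. The medians, 0.03 and 0.02, lay close to that of all probe sets.

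Of the other feedback inhibitors and ERK-induced genes, 16 of 20 were tested, with medians of -0.18 in low potassium and -0.42 with GW5074. The counts called were 4 and 5 of 16, beside 22.7% and 25.0% of all. In low potassium 1 rose, the immediate early factor Egr1 (0.95), and 3 fell: the ETS factor Etv5 (-0.86), the Spred paralogue Spred3 (-0.83, adjusted p = 0.0201, limma) and the AP-1 subunit Fosl1 (-0.78). With GW5074 1 rose, the ETS factor Etv1 (0.83), and 4 fell, namely the ERK phosphatase Dusp6 (-1.25), the Ras GTPase-activating protein Rasa2 (-0.92), Fosl1 (-0.89) and Etv5 (-0.68). Spred3 was not called with GW5074 (-0.56, adjusted p = 0.0899, limma). Without the letter B arrays at 6 h Spred3 was called there too (-0.75, adjusted p = 0.0196). The paralogue Spry3 was called in neither treatment (-0.07 in low potassium and 0.33 with GW5074). In the paired comparison of GW5074 with low potassium at 6 h, the phosphatase Dusp1 fell by 1.05 (adjusted p = 2.83e-04, limma) and the early response gene Ier3 fell by 0.54 (0.0458), while the ERK phosphatase Dusp5 rose by 0.44 (0.0108). None of the 3 was called without pairs, and Dusp5 was not called with pairs when the letter B pair was left out (0.34, adjusted p = 0.0739).

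Of the proteins that Gadd45 proteins bind or act through, 15 of 20 were tested, 1 up and 2 down in low potassium (22.7% of all called) and 2 up and 4 down with GW5074 (25.0% of all called). The p38 activator Map2k6 rose by 2.30 in low potassium and by 2.70 with GW5074. The p21 gene Cdkn1a fell (-1.37 and -1.496), as did the base excision repair endonuclease gene Apex1 (-0.60 and -0.67). The p38 isoform gene Mapk12 rose by 1.08 with GW5074. List medians were -0.02 and 0.02, and none was called in the comparisons of GW5074 with low potassium, with pairs or without.

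Of factors known to act on Gadd45 transcription, 22 of 24 were tested, with 4 up and 4 down in low potassium (22.7% of all called) and 3 up and 4 down with GW5074 (25.0% of all called). The forkhead factor Foxo3 rose by 0.89 in low potassium and by 1.23 with GW5074, and the stress factor Atf4 fell (-0.47 and -0.43). The TGF-beta signal carrier Smad2 fell in both (-0.67 in low potassium and -0.53 with GW5074). The stress factor Atf3 also fell in both (-1.67 and -2.37), as did the C/EBP factor Cebpb (-0.68 and -1.04). Egr1 rose in low potassium, as above, and its 0.40 with GW5074 was not called. In the paired comparison of GW5074 with low potassium, the AP-1 subunit gene Jun fell by 1.08 at 3 h (adjusted p = 0.0167, limma) and fell by 1.64 at 6 h (2.83e-05). At 6 h Jund fell by 0.60 (5.36e-04) and Atf3 fell by 0.98 (0.0269) with GW5074. Atf3 was not called without the letter B pair (-0.99, adjusted p = 0.0676). With all arrays no gene of any of these 6 lists was called in the difference between the 2 times, with pairs or without. Without the letter B arrays at 6 h the paired fit called 3 factors of this last list there, Foxo3 up (0.50) and Jund (-0.48) and the stress factor Ddit3 (-0.83) down. The share of all probe sets called in that fit was not counted.

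Leaving out the letter B arrays at 6 h, with 29.8% of all probe sets then called in low potassium and 31.4% with GW5074, moved the time counts of several lists. The other feedback inhibitors and ERK-induced genes had 2 up and 7 down of 16 in low potassium, and 1 up and 8 down with GW5074. The Gadd45 partners had 2 up and 4 down of 15, and 3 up and 4 down. The Sprouty and Spred partners had 1 up and 3 down of 12, and 2 up and 3 down. The factors acting on Gadd45 transcription had 6 up and 5 down of 22, and 3 up and 6 down. The RAF-MEK-ERK components had 1 up and 1 down of 10, and 1 up and 4 down, and the receptors and adaptors had the counts given above. Of the genes named for their time changes, Map2k2 (-0.40, adjusted p = 0.0769, limma) and Cebpb (-0.58, adjusted p = 0.0809) were then not called in low potassium.

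**Figure D4:**
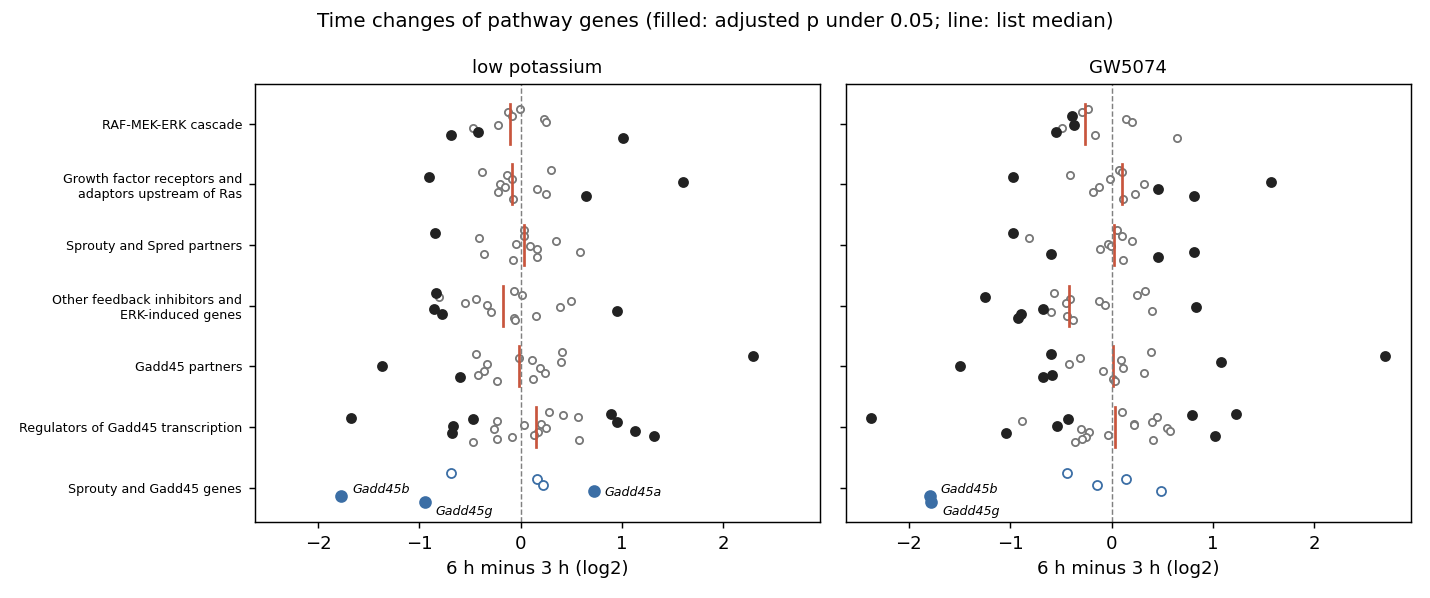
Log2 change from 3 h to 6 h in low potassium (left) and with GW5074 (right) of every tested gene of the 6 lists and, in blue, of the 6 Sprouty and Gadd45 genes; filled points have an adjusted p under 0.05 and red lines are list medians. The rightmost point of each panel is Map2k6, at 2.30 and 2.70.

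The genes whose profiles over the 12 arrays lay closest to the called members were found by the root-mean-square difference of log2 values, each centred on its own mean, among 10255 other genes. For Gadd45a they were Prune1 (0.117), Gtf2ird1 (0.148) and Tmem87a (0.151). For Gadd45b they were Tgfbi (0.151), Abracl (0.158) and Ndufaf4 (0.185). For Gadd45g the nearest genes were farther off, Serpina3n (0.232), Adm (0.245) and the calcium-binding protein gene Pvalb (0.249). Pvalb is also in the list of Purkinje and GABAergic markers. All 12 arrays are shared by these profiles, and no test was made of the likeness.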

How the data were processed

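The authors deposited a linear intensity for each of 31099 probe sets (57 of them controls) on every array, and scaled each array to a trimmed mean of 150 with 2% removed at each end, as the deposited values show. How probes were summarised, and with which software, is not stated in what was used here. Of 31042 non-control probe sets 20826 carry 1 symbol in the platform table, 436 several and 9780 none, and 20758 were matched by Entrez identifier to a RefSeq rat gene table (GRCr8). Values were quantile-normalised, 16 was added, log2 was taken, and probe sets with a mean below the 40th percentile were left out, which kept 18625 (10261 genes). A model of 4 group means with 8 residual degrees of freedom was fitted in limma 3.58.1 (R 4.3.3), with lmFit and then eBayes allowing a trend of variance on intensity, and two-sided tests had Benjamini-Hochberg adjustment and a threshold of 0.05. The limma script was tested on simulated data. Plots used Python 3.11.15 and matplotlib 3.10.9. With 12 arrays, their number limits the precision.

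The letters come from the labels' titles. Deviations from the group means, over all probe sets, correlated between the arrays that share a letter (A, B, C): r was 0.425, 0.21 and 0.542 at 3 h, while at 6 h it was 0.293, 0.65 and 0.572. For each low potassium array, the best match among the GW5074 arrays of its time was that of its own letter, in 6 of 6. The match in the other direction was not examined. A fit with these pairs as a block (4 residual degrees of freedom) is therefore given where it changes a call. That block lies within a time, so the time changes were instead refitted with a random pair effect (correlation 0.496) or a letter block.

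The genes, lists and motifs were chosen with earlier results of these data known. The probe set of each of the 6 genes that had one is named. From each list at most 4 called genes per comparison are named, by smallest p, and for each called gene of the 8 the 3 nearest profiles. Spry3 and the GW5074 values of Spred3 were added as paralogues after their values were seen. So were Slc17a7, Reln and Fabp7 in the paired fit, Ddit3, and the values of some named genes in the other treatment. The time changes of Gfap, Aldoc, Slc1a3 and Gja1 were also added in this way. Alternatives were the pseudocount, the filter, the deposited scaling, the variance trend, the blocks, each array or pair left out, and, chosen after seeing the data, the letter B arrays at 6 h left out.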

Additional observations from a re-analysis of the deposited data

Results flagged for a closer look

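For Gadd45g the difference of the log2 GW5074 effects at 6 h and 3 h was -0.83, which passed the threshold in limma with pairs (adjusted p = 0.0319) and not without (0.9998). With pairs it kept the call in 5 of 12 other settings and lost it in 7, with an adjusted p between 0.00328 and 0.324. Its 3 pairs at 3 h all had the GW5074 array higher, and its 3 pairs at 6 h all had it lower.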

How the results depend on the processing

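With the replicate block within time, 1 gene (Gadd45g) was called at 6 h and 1 in the difference between the times, against 0 without pairs, and the block changed no other call of the 6 genes in the GW5074 comparisons. In the fit with pairs, the 6 h count was 0 without a variance trend, and the count for the difference was 0 without a filter and 0 without a trend. With 1 pair left out these counts ranged from 0 to 1 each. The count called with time in low potassium ranged from 1 to 3 with 1 array left out, the 1 being without low potassium 3 h B. With a replicate block by letter across times, Spry1 in low potassium (adjusted p = 0.0421, limma) and Gadd45a with GW5074 (0.0337) also passed the threshold with time. The falls of Gadd45b with time held in 15 of 15 settings in each treatment (-2.1 to -1.49 and -2.2 to -1.45), and that of Gadd45g with GW5074 in 15 of 15 (-2.04 to -1.44). Signs turned only for differences that were not called. Gadd45b at 6 h was -0.00117 with a pseudocount of 4, in either fit, and -0.0791 without the letter B arrays at 6 h, where the difference between the times of Spry2 was 0.0141. Without pairs and with 1 array left out, Gadd45b ranged from -0.0669 to 0.0966 at 3 h, from -0.405 to 0.346 at 6 h and from -0.427 to 0.325 in the difference. Spry2 ranged from -0.253 to 0.0489 at 6 h and from -0.134 to 0.168 in the difference, Spry4 from -0.0392 to 0.138 at 6 h, and Spry1 from -0.0243 to 0.531 in the difference. With pairs and 1 left out, the 3 h ranges were -0.215 to 0.0501 for Spry2 and -0.0256 to 0.274 for Spry1. The 6 h ranges were -0.0791 to 0.0629 for Gadd45b and -0.146 to 0.202 for Spry4, and those of the difference were -0.101 to 0.0412 for Gadd45b and -0.189 to 0.103 for Spry2. The cause of these changes was not tested. Averaging the probe sets of a gene was not run as a setting, since each gene had 1. Signal over background was not analysed, as the table holds no detection calls; a change of a dim probe set such as that of Spry1 is understated by the added 16.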
